A study of Mus musculus with 4 samples.

Results

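The genes described here make, sense, store and export cholesterol. They are 31 of the 50600 genes in the count tables. The members were chosen by name for their place in the pathway and not by a rule on measured values. Earlier results of these data were, however, known when they were chosen. The list does not hold every enzyme of the pathway. Of the 31, 20 are synthesis enzymes, 5 sense sterols and control the pathway, and 6 move, store or export sterols or govern those steps. They were measured in 4 RNA-seq libraries of mouse regulatory T cells, strain C57BL/6NJ, the CD4+ T cells that restrain immune responses under the transcription factor Foxp3. The labels number the libraries as biological replicates 1 to 4 of 1 group but give all of them the same donor record, so whether they come from separate animals is not stated. The p-values cover sample-to-sample spread alone. Xist levels, given with the library depths, set replicates 1 and 2 apart from 3 and 4, so the libraries are not all repeats of the same material, while the spread within each of those pairs may be technical. Age was unknown and sex not collected, and the labels state no genotype change or treatment. A CD4+ T cell differentiation protocol is linked, and names inside the file headers describe the cells as sorted and activated, at 72 h. The assay is titled total RNA-seq while a protocol for poly(A)+ RNA is linked to it. With 1 group there is no contrast between conditions.

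Cholesterol is built from acetyl-CoA. The mevalonate segment turns acetyl-CoA into isoprenoid units and joins them into farnesyl diphosphate, which is either made into squalene for sterols or used for prenyl groups, ubiquinone and dolichol. Squalene is closed to lanosterol, and a last series of steps trims lanosterol to cholesterol. When membrane sterol is low, the Scap protein carries the SREBP precursors encoded by Srebf1 and Srebf2 to the Golgi, where they are cut to active transcription factors that switch on synthesis genes; when sterol is high, the Insig proteins hold Scap back. Excess sterol activates the LXR receptors, which raise the exporters Abca1 and Abcg1, and Soat1 stores sterol as esters. T cells raise sterol synthesis when they are activated and begin to divide, and regulatory T cells also depend on the mevalonate segment for prenylated proteins.

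The libraries held 32648138 to 94983494 counts. All 7 regulatory T cell markers examined reached 1 TPM (a transcript level corrected for gene length and library depth) in every library, with Foxp3 at 463 ± 25.4 TPM (SD, n = 4). Macrophages, which are known for sterol export, left little trace: 2 of 8 monocyte and macrophage markers reached 1 TPM in every library, Cd68 at 7.45 TPM and Adgre1 at 1.75 TPM. The 8 markers summed to 7.83 to 11.1 TPM, and Mrc1 and Fcgr1 had no count. The B cell markers summed to 0.683 to 1.04 TPM and those of CD8 T and NK cells to 1.87 to 3.38 TPM. Those of dendritic cells summed to 3.86 to 5.07 TPM, most of it Zbtb46 at 4.26 TPM. Those of erythroid and stromal cells summed to 11.1 to 14.4 TPM, most of it Pecam1 at 9.37 TPM. The libraries differ in Xist, the RNA of the inactive X chromosome, which stood at 312, 331, 0.539 and 2.38 TPM in replicates 1 to 4. In bulk RNA, fewer expressing cells and less RNA per cell cannot be told apart.

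Promoter sequences are shown first because the synthesis enzymes share a feature there that the choice of members did not use. RefSeq (build GRCm38.p6, the assembly also called mm10) gave windows of 250 bases before to 50 bases after an annotated transcription start for 26 of the 31 members, 34 windows in all. Fdps, Fdft1, Sqle, Stard4 and Abcg1 had no window. Both strands were searched for the CCAAT box, which is bound by NF-Y, a factor known to act beside SREBPs, for the GC box GGGCGG, bound by Sp1 family factors, and for a sterol regulatory element, the SREBP site, spelled TCACNCCAC. Matches of different motifs were allowed to share bases, and a match is one of letters only. The 140 bases before the start are printed 5′ to 3′ on the gene's strand for 8 members of the pathway that hold a CCAAT box and for the exporter Abca1, which holds none; capitals mark CCAAT boxes on either strand (ATTGG on the reverse) and, in Hmgcs1, the sterol regulatory element.
Hmgcs1: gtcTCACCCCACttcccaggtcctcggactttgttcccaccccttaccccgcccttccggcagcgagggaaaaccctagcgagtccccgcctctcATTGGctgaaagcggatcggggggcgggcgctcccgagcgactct
Mvd: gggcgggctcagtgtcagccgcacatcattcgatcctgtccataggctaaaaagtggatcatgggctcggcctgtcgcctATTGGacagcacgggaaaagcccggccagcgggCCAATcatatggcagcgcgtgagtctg
Idi1: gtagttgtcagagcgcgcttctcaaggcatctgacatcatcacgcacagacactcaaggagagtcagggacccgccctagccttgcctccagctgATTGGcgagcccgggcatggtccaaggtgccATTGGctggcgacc
Lss: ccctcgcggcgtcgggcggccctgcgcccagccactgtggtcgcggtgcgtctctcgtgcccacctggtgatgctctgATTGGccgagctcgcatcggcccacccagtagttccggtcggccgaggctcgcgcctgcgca
Cyp51: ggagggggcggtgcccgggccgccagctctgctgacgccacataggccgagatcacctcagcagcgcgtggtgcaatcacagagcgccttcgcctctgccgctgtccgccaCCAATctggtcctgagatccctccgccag
Msmo1: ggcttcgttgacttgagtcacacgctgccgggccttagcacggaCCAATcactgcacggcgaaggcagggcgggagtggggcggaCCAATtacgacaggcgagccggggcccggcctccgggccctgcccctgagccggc
Ebp: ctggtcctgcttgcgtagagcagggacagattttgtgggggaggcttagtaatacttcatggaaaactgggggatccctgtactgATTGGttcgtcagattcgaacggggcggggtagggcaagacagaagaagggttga
Srebf2: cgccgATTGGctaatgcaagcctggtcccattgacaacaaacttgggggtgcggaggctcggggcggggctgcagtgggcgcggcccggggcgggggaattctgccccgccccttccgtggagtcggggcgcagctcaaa
Abca1: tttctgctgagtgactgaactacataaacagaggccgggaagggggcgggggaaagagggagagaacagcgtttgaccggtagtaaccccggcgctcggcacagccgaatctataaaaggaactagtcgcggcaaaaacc

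These stretches lie at chr13:119690211-119690350 (Hmgcs1, plus strand), chr8:122443423-122443562 (Mvd, minus), chr13:8885466-8885605 (Idi1, plus), chr10:76531465-76531604 (Lss, plus), chr5:4104698-4104837 (Cyp51, minus), chr8:64733579-64733718 (Msmo1, minus), chrX:8193513-8193652 (Ebp, minus), chr15:82147129-82147268 (Srebf2, plus) and chr4:53159896-53160035 (Abca1, minus). A CCAAT box was present in 23 of the 34 member windows, or 67.6%, against 37.4% of all 32851 windows in the table and 38.4% of the 11241 windows of genes at 1 TPM or more in every library. Among the synthesis enzymes 16 of 17 genes with a window held at least 1, in 16 of their 20 windows, and Acat2 was the exception. Among the other members 6 of 9 did, in 7 of 14 windows, and Abca1, Nr1h2 and Scap did not. The shares over all and expressed genes are per window, and no share per gene was counted for them. Of the 48 CCAAT matches in member windows 28 lay within the 100 bases before the start. This position was not counted over all windows, so it cannot be called particular to the members. The GC box was in 79.4% of member windows, against 35.7% of all windows and 63.9% of those of expressed genes. The sterol regulatory element as spelled was in 1 member window, that of Hmgcs1 at positions -137 to -129 from the start, and in 1.24% of all windows. Many known sterol regulatory elements differ from this spelling.

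**Figure D1:**
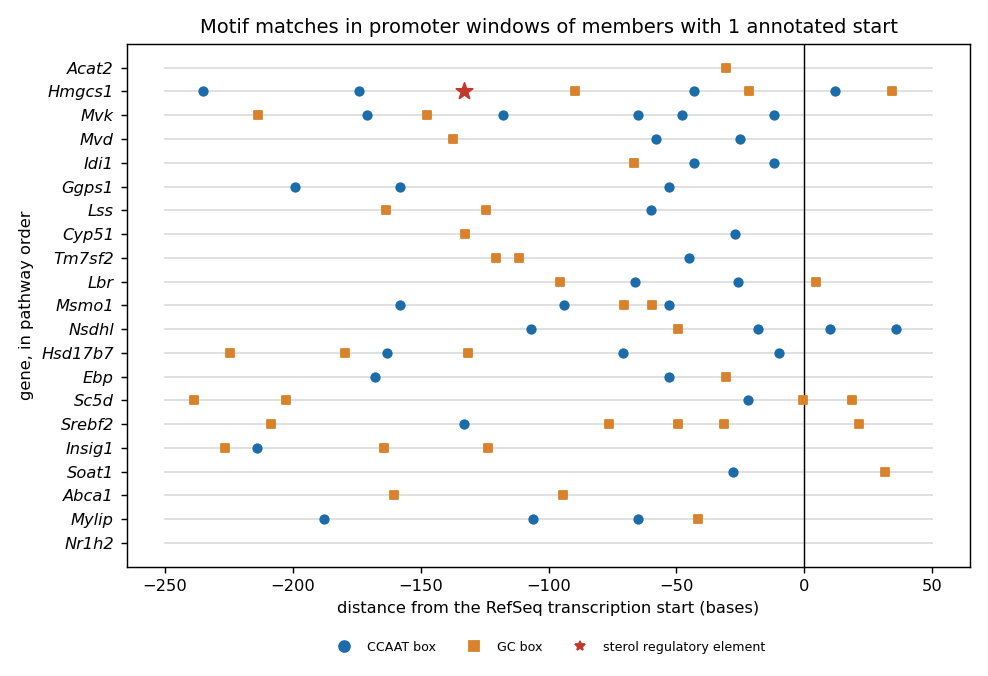
Matches to the CCAAT box (circles), the GC box (squares) and the sterol regulatory element (star) in the promoter windows of the 21 members with 1 annotated start; the x axis is the distance in bases from the RefSeq transcription start and each row is a gene in pathway order. Many circles of the synthesis enzymes lie in the last 100 bases before the start, a position that was not counted over all windows. The rows of Acat2, Abca1 and Nr1h2 have no circle.

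All 31 members reached 1 TPM in every library, a level that 23.9% of the genes in the tables reached, and 30 of them reached 10 TPM. The exception was Mylip. Their median level was 77.9 TPM, against 21.4 TPM over the 13478 genes tested for variation, and together they took 0.363 to 0.392% of all TPM. The highest member, Srebf2, stood at the 97.7th percentile of genes at 1 TPM or more in every library, and the lowest, Mylip, at the 7.26th. TPM divides by the whole exon length of the deposited annotation, so a gene whose long exons are little used is understated. Reads overlapping another gene on the same strand were not counted: Fdps shares 26.7% of its exon bases with Gm43738 and Tm7sf2 shares 15.3% with Vps51, so both levels are uncertain and may be too low. Lbr shares 1.45%, Srebf1 1.17% and the other 27 members none.

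The mevalonate segment was uneven. Hmgcs1, the cytosolic synthase that makes HMG-CoA, was the highest of the 20 enzymes listed here, at 329, 407, 335 and 382 TPM in replicates 1 to 4. Acat2, which joins acetyl-CoA units ahead of it, stood at 143 ± 13.3 TPM (SD, n = 4). The kinase genes next in the list, which does not hold every step, differed from each other. Mvk, mevalonate kinase, measured 62.0, 48.1, 58.4 and 54.0 TPM. Pmvk, phosphomevalonate kinase, measured 210.4, 197, 208 and 219.98 TPM. Mvk lay below Pmvk in each library with no overlap. Mvd, the decarboxylase that completes isopentenyl diphosphate, stood at 269.5 ± 21.3 TPM. Idi1, the isomerase that prepares the starter unit for chain building, was the lowest of the 20 enzymes listed here, at 22.9, 28.0, 21.1 and 24.2 TPM. Between Hmgcs1 and Idi1 the mean levels in this segment span 15.1-fold. Fdps, farnesyl diphosphate synthase, stood at 62.7 ± 4.4 TPM and Ggps1, which adds a further unit for geranylgeranyl groups, at 38.1 ± 4.85 TPM.

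The steps from farnesyl diphosphate to lanosterol fell within a narrower range, 2.29-fold between their means. Fdft1, squalene synthase and the first enzyme committed to sterols, stood at 143 ± 9.95 TPM, Sqle, the oxygenase that makes squalene epoxide, at 95.7 ± 8.28 TPM, and Lss, the cyclase, at 62.3 ± 4.92 TPM. The TPM ranges of these genes over the libraries did not overlap, so the levels in TPM step down in pathway order. That order rests on the length correction, with exon lengths of 2860, 5546 and 10787 bases. Counts ran the other way in every library, at 5516, 6856 and 8798 for Fdft1, Sqle and Lss in replicate 1. Fdft1, at the branch to sterols, was above Ggps1, at the branch to prenyl groups, in every library: the lowest Fdft1 value was 133 TPM and the highest Ggps1 value 44.2 TPM.

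In the lanosterol-to-cholesterol segment Cyp51, the cytochrome P450 that removes a methyl group from lanosterol, was highest at 296, 349.98, 289 and 317 TPM. Either of the sterol reductases encoded by Lbr and Tm7sf2 can carry out the step after it. Lbr, which is also the lamin B receptor of the inner nuclear membrane, measured 139, 153, 140.05 and 148 TPM, and Tm7sf2 32.4, 27.7, 35.7 and 35.7 TPM. Lbr was 3.92 to 5.52 times Tm7sf2, and by 2.11 ± 0.21 on the log2(TPM + 1) scale (SD, n = 4), above 0 in 4 of 4 libraries. Flipping signs within libraries (exact permutation test, two-sided) gave p = 0.13 (2 of 16 sign patterns, rounded), the smallest that 4 libraries allow, unchanged by Benjamini-Hochberg adjustment over the 5 gene pairs compared. The other enzymes lay between 46.4 and 116 TPM. Msmo1, the methyl sterol oxygenase, stood at 77.0 ± 8.48 TPM and Sc5d, the desaturase, at 77.1 ± 5.89 TPM. Dhcr7, the reductase of the final step of this series, stood at 77.9 ± 7.26 TPM. These 3 were not separated by their spread. Scap, at 76.7 ± 7.01 TPM, had a mean just below theirs and a range over the libraries that overlapped them.

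Hsd17b7, the ketosteroid reductase, stood at 46.4 ± 4.57 TPM. Ebp, the isomerase that shifts the ring double bond, and Nsdhl, a sterol dehydrogenase, are on the X chromosome. Ebp measured 115, 115, 112 and 122 TPM in replicates 1 to 4, the smallest spread of any enzyme listed here at 3.53% of its mean. Nsdhl measured 88.8, 103, 103 and 104 TPM, with replicate 1 alone below the rest. Neither gene followed Xist, which was high in replicates 1 and 2 only.

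**Figure D2:**
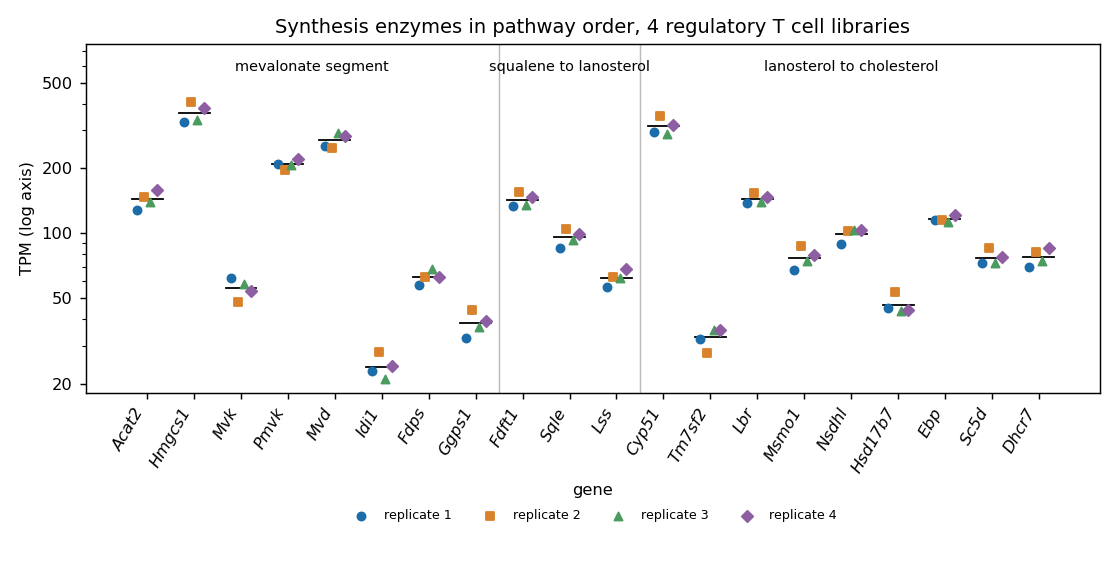
Levels of the 20 synthesis enzymes in pathway order, in TPM on a log axis; each point is a library, the black bar is the mean of 4, and grey lines divide the segments. Hmgcs1, Mvd and Cyp51 stand highest, and Idi1 and Tm7sf2 lowest.

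Among the genes that sense sterols Srebf2, whose product mainly drives cholesterol synthesis, was the highest member of all at 475, 467, 494 and 480 TPM, with the smallest spread, 2.32% of its mean. Srebf1, whose product is better known for fatty acid synthesis, measured 249, 221, 253 and 239.6 TPM. Srebf2 was 1.91 to 2.12 times Srebf1 in every library, by 0.99 ± 0.06 (log2, SD, n = 4; exact permutation p = 0.13 before and after adjustment). Scap measured 86.7, 71.5, 76.5 and 72.1 TPM, below both SREBP genes.

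The Insig genes were unequal. Insig1, itself a known SREBP target, measured 170.1, 194, 173 and 176 TPM, and Insig2, which is less dependent on SREBPs, 27.5, 45.3, 38.6 and 36.5 TPM. Insig1 exceeded Insig2 by 2.26 ± 0.23 (log2, SD, n = 4) and did so in 4 of 4 libraries (exact permutation p = 0.13 before and after adjustment). The ratio was widest in replicate 1, at 6.19, against 4.29 to 4.81 in the others, and Insig2 was lowest there.

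Genes of transport, storage and efflux had a lower median, 38.8 TPM, against 86.8 TPM for the synthesis enzymes and 178 TPM for the sensing genes. Stard4, which carries sterol between membranes in the cytosol, was highest at 120, 157, 137 and 142 TPM. Soat1, the acyltransferase that makes cholesteryl esters, measured 24.9, 31.4, 25.6 and 25.3 TPM. The exporter Abcg1 measured 43.8, 54.4, 51.3 and 53.8 TPM and Abca1 17.7, 15.5, 14.003 and 14.5 TPM, so replicate 1 held the lowest Abcg1 and the highest Abca1. Abcg1 exceeded Abca1 by 1.66 ± 0.26 (log2, SD, n = 4; exact permutation p = 0.13 before and after adjustment). Abca1 transcripts are long, and without length correction, in counts per mapped total (CPM), that difference was 0.36 (exact permutation p = 0.25). Abcg1 had more counts than Abca1 in replicates 2, 3 and 4 and fewer in replicate 1, 2578 against 2653. The size of the difference, and its order in replicate 1, therefore rest on the length correction.

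Mylip, the ubiquitin ligase that marks lipoprotein receptors for degradation and an LXR target, was the lowest member at 2.53, 1.93, 2.62 and 3.97 TPM, on 112 to 237 counts. Nr1h2, the widely expressed LXR receptor, measured 115, 99.7, 115 and 117 TPM, while Nr1h3, the LXR receptor known from macrophages and liver, measured 1.04, 0.927, 0.498 and 0.791 TPM on 20 to 51 counts. Nr1h2 was 107 to 231 times Nr1h3, by 5.96 ± 0.25 on the log2(TPM + 1) scale (SD, n = 4; exact permutation p = 0.13 before and after adjustment). The added 1 TPM understates this difference; with 0.1 TPM added it was 6.97.

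**Figure D3:**
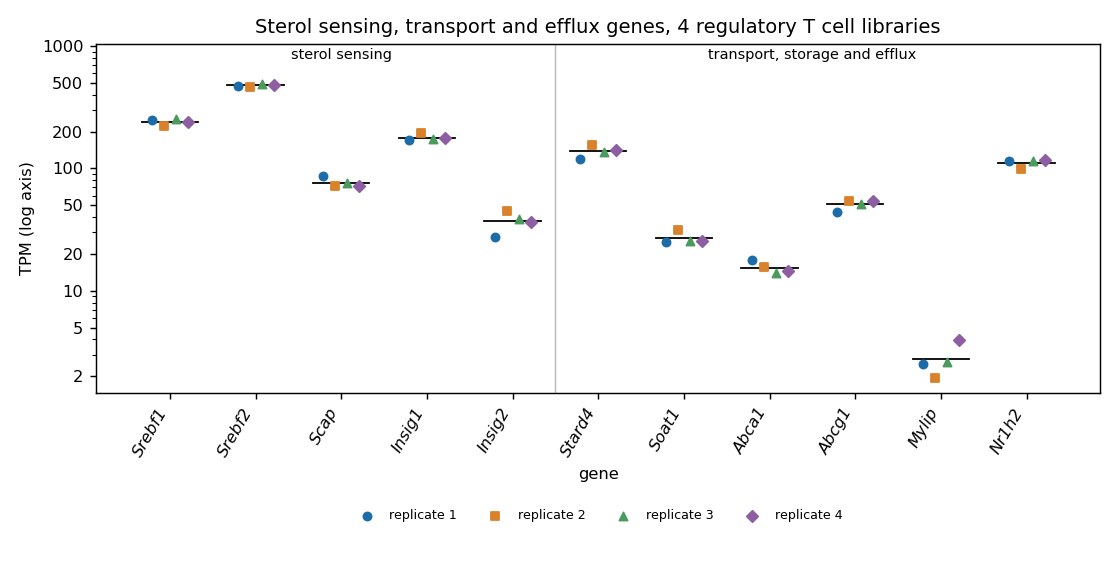
Levels of the 5 sterol sensing genes and the 6 transport, storage and efflux genes, in TPM on a log axis; points are libraries and the black bar is the mean of 4. Srebf2 is highest in every library, and Mylip lies below all others.

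Ordered by mean level the members ran from Srebf2 through Hmgcs1, Cyp51, Mvd, Srebf1, Pmvk and Insig1 down to Soat1, Idi1, Abca1 and Mylip. Of the 30 neighbouring pairs in this order 23 had overlapping ranges over the libraries. The 7 that did not were Srebf2 above Hmgcs1, Srebf1 above Pmvk, Pmvk above Insig1, Insig1 above Lbr, Scap above Fdps, Idi1 above Abca1 and Abca1 above Mylip. The middle of the order, from Lbr to Scap, is a run in which each member overlaps the next.

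No member passed the test for excess variation between libraries. This variation was tested per gene with edgeR's fit of 1 mean per gene, asking whether a gene differed between the libraries more than genes of the same abundance do. At an adjusted p under 0.05, 0 of 31 members were called, against 51 of 13478 genes, or 0.378%. With a background that low, 0 of 31 says nothing particular about these genes. At an unadjusted p under 0.05 there was 1 member, Insig2, or 3.23%, against 5.97% of all genes. Without replicate 2 it was 3 members and without replicate 3 it was 2. The share of all genes in those runs was not counted, so these counts are not read as particular to the members. Under the DESeq2 size factors the counts were likewise 0 called and 1 unadjusted. The median spread of the members was 9.14% of the mean, against 9.89% over all genes tested. Members are more abundant than most genes, however, and abundant genes vary less: the spread that the abundance trend gives has a median of 7.46% for the members and 9.77% for all genes tested. Against that trend 9 of 31 members, Srebf2 and Ebp among them, lay below it. How many of all genes do so was not counted, so the 9 is not read as particular to the members. The trend also leaves out counting error, which the measured spread includes. The median deviance of the fit was 2.96 for the members and 2.11 for all genes. Counting error is a small part of the measured spread: the lowest count behind a member other than Mylip was 851, for Idi1 in the shallowest library. It corresponds to a counting error of 3.43%, and the lowest count for Mylip, 112, to 9.45%.

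Insig2 was the nearest to a call (edgeR goodness of fit, adjusted p = 0.368). Its highest library was 1.65 times its lowest. Mylip had the widest range, 2.06-fold, but the spread of genes at its abundance is also wide, 26.2% of the mean by the trend, and it was not called. Scap (edgeR adjusted p = 0.866) and Mvk (0.894) came next, both highest in replicate 1, and neither passed.

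**Figure D4:**
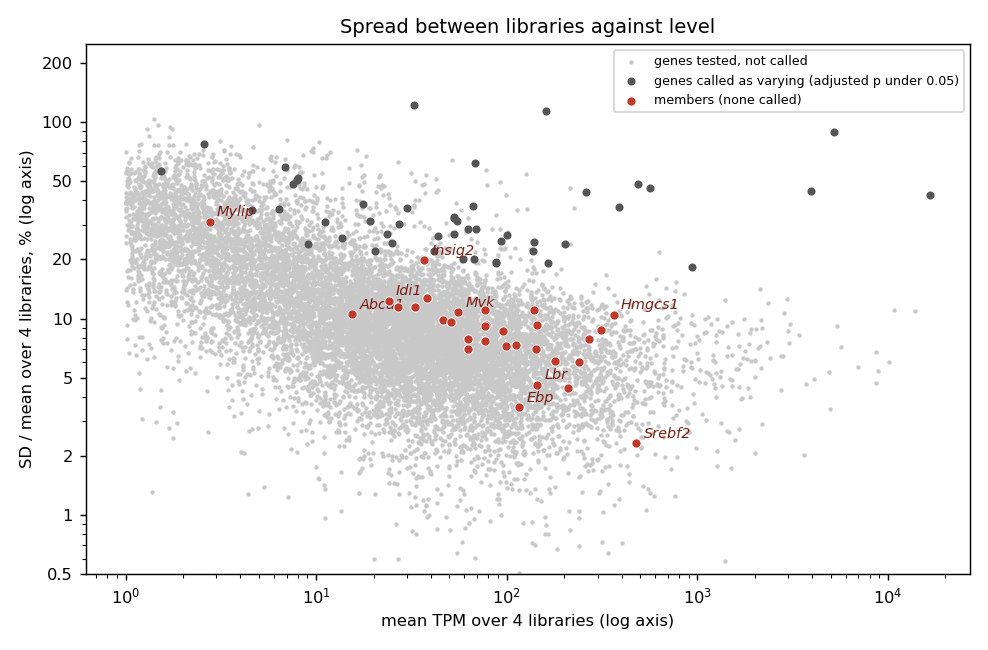
Spread between the 4 libraries (SD as a percentage of the mean, log axis) against mean level in TPM (log axis) for genes tested with a mean of 1 TPM or more. Red points are the 31 members, dark points the genes called as varying at an adjusted p under 0.05, and grey points all others. The members lie inside the grey cloud, with Srebf2 near its lower edge and Insig2 and Mylip highest among them.

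Small shifts were nevertheless shared by many of the synthesis enzymes. Each library's log2 CPM, after TMM scaling, was compared with the gene's own mean over the libraries. In replicate 1, 16 of the 20 synthesis enzymes lay below their own mean, with a median of -0.05, and 10 were at their lowest. In replicate 4, 17 of 20 lay above, with a median of 0.05. The 11 other members did not share these shifts. Of them 6 lay below and 5 above their own mean in replicate 1, with a median of -0.03. In replicate 4, 7 of the 11 lay below and 4 above, with a median of -0.005. The libraries also differ in Gm42418, a locus overlapping ribosomal RNA, which was highest in replicate 1 and lowest in replicate 4, at 11891, 4335, 2980 and 1555 TPM in replicates 1 to 4; its part in these shifts was not tested. Over 11966 genes at 1 TPM or more, 50.4% lay above their own mean in replicate 1 and 50.8% in replicate 4. The enzymes below their mean in replicate 1 included Ggps1, at -0.18, Msmo1, at -0.15, and Acat2, at -0.13, whereas Mvk was above at 0.20. No enzyme was called as varying.

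Replicate 2 split the members by base composition. Transcript GC content ran from 40.1% in Ggps1 to 60.6% in Nr1h2. The 7 members above 56% GC, Mvk, Pmvk, Mvd, Srebf1, Srebf2, Scap and Nr1h2, were all at their lowest in replicate 2, by -0.25 to -0.08 (log2). The 12 below 47% GC, Hmgcs1, Idi1, Ggps1, Cyp51, Msmo1, Sc5d and Insig2 among them, were all above their own mean there, 11 of them at their highest. These bounds were set after the values were seen. The same direction held for 77.3% of 2062 genes above 56% GC and 74.2% of 4282 genes below 47%. Across the 31 members, which share the libraries and their depth, the deviation in replicate 2 correlated with GC content at a Pearson r of -0.67, and across 11966 genes at -0.32. Once GC and length trends over all genes were removed, 12 members were highest and 7 lowest in replicate 2, against 14 and 10 as measured, and r over the members was -0.40. Of all 11966 genes, 28.7% were highest and 29.7% lowest in replicate 2 as measured, so the 10 members lowest there are near the share of all genes. The 14 highest there are above it, a difference that was not tested. After the removal 25.1% of all genes were highest and 26.6% lowest in replicate 2. The part of base composition in these shifts was not tested further. In replicate 1, 14 of 31 members were lowest both before and after the removal, against 29.9% and 30.3% of all genes.

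**Figure D5:**
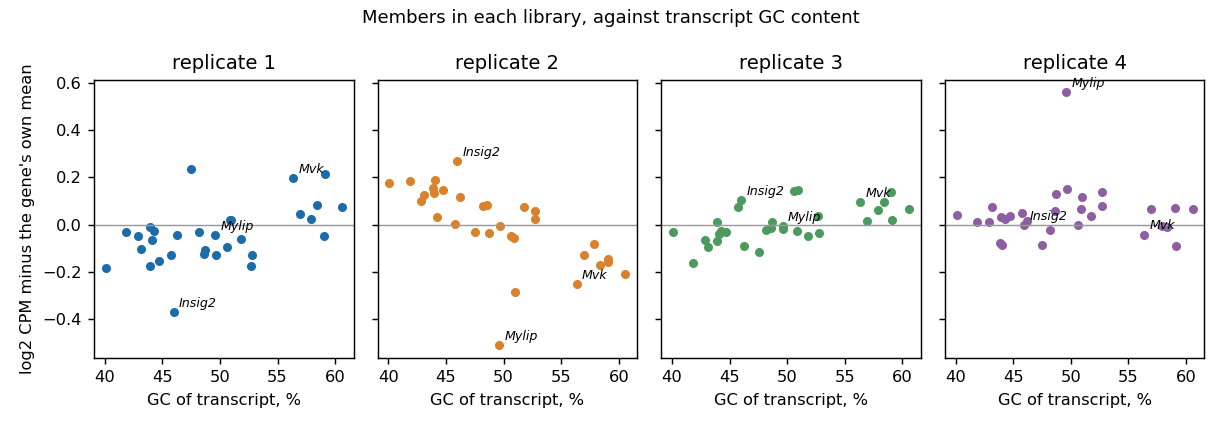
Deviation of each member from its own mean (log2 CPM) in each library, against the GC content of its longest annotated transcript in percent; each point is a member. In replicate 2 the points fall from left to right, from above 0 under 47% GC to below 0 over 56% GC, while most points lie below 0 in replicate 1.

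Neighbouring pathways were read from lists chosen by function. Of 12 genes of fatty acid synthesis, the arm associated with Srebf1, 11 reached 1 TPM in every library, with a median of 87.6 TPM. The desaturases Scd2, at 1440, 1749, 1635 and 1702 TPM, and Scd1, at 521, 619, 598 and 608 TPM, were above every sterol enzyme listed here. Acly, which supplies cytosolic acetyl-CoA to both pathways, stood at 358 ± 22.7 TPM. The lowest was Me1, malic enzyme, at 0.117 TPM with no count in replicate 1. None of the 11 genes tested was called by edgeR and 1 had an unadjusted p under 0.05. The shares over all genes tested were 0.378% called and 5.97% unadjusted, so these counts say nothing particular about the list.

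All 13 genes that use isoprenoid units outside sterol synthesis reached 1 TPM in every library, with a median of 40.4 TPM. They were led by Rabggtb, a subunit of the transferase that prenylates Rab proteins, at 133 ± 6.30 TPM, Nus1, of dolichol synthesis, at 67.4 ± 5.27 TPM, and Fnta, the shared subunit of farnesyl and geranylgeranyl transferases, at 63.9 ± 4.64 TPM; Pdss2, of ubiquinone side chain synthesis, was lowest at 5.16 ± 0.531 TPM. None of the 13 was called by edgeR, and 0 had an unadjusted p under 0.05. Of 23 other sterol genes 17 reached 1 TPM in every library, with a median of 23.3 TPM. They were led by Npc2, the lysosomal sterol carrier, at 155 ± 8.10 TPM, Rxrb, a partner receptor of the LXRs, at 116 ± 0.588 TPM, and Acat1, the mitochondrial thiolase, at 93.0 ± 5.76 TPM. Cyp7b1, an oxysterol hydroxylase, had no count in any library. None of the 19 tested was called by edgeR, and 1 had an unadjusted p under 0.05. Beside the shares over all genes, 0.378% called and 5.97% unadjusted, the counts of both lists say nothing particular about them.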

How the data were processed

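The authors deposited raw counts, whole read pairs per gene, made per the file headers with featureCounts 1.4.6-p4 in paired mode, both ends mapped, strand setting 2, on the GENCODE M13 exons; the labels give the mm10 assembly, and how the aligner was run is not stated in them. With that tool's default options multimapping and overlapping reads are not counted. Symbols came from GENCODE M21, which matched 50376 of 50600 identifiers. TPM was computed here from counts and exon length. Variation between libraries used edgeR 4.0.16 under R 4.3.3, with TMM scaling, genes kept by filterByExpr (10 counts), an intercept, the trended dispersion, and a goodness-of-fit test with 3 degrees of freedom, one-sided, Benjamini-Hochberg adjusted over all genes and called under 0.05; it was tested on simulated data. Gene pairs were compared within libraries on log2(TPM + 1). GC content is that of the longest M21 transcript. The members and lists were chosen with earlier results of these data known. All members are named; of the other lists, the 3 highest, the lowest and any called gene. Alternatives were DESeq2 1.42.0 size factors, other filters, the common dispersion, another pseudocount, CPM, a protein-coding TPM total and each library left out; GC and length removal was added after seeing the data. A floor of 3 counts corresponds to 0.0316 to 0.0919 CPM and covers counting error only.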

Additional observations from a re-analysis of the deposited data

Results flagged for a closer look

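Of 48 values examined for a library far from the other 3, 5 stood apart by Dixon's criterion, which marks about 1 in 20 groups by chance. Nsdhl was low in replicate 1, at 88.8 TPM against 103 to 104 TPM. In replicate 2, Hsd17b7 was high at 53.2 TPM against 43.5 to 44.9 TPM, Soat1 was high at 31.4 TPM against 24.9 to 25.6 TPM, and Nr1h2 was low at 99.7 TPM against 115 to 117 TPM. The log2 difference between Abcg1 and Abca1 was smallest in replicate 1, at 1.26 against 1.74 to 1.82.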

How the results depend on the processing

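No member was called as varying under any alternative run, and all 31 stayed at 1 TPM in every library whichever library was left out; 30 reached 5 TPM. The smallest adjusted p of any member by edgeR ranged from 0.132 with the common dispersion to 1.0 without replicate 1. The number of genes called over the whole table was 51; it was 931 with the common dispersion and ranged from 17 to 56 with 1 library left out, 17 without replicate 1, 23 without replicate 3 and 33 without replicate 4. The 5 pair differences kept their sign under each alternative, and leaving out libraries gave ranges of 0.96 to 1.01 for Srebf2 and Srebf1, 2.15 to 2.32 for Insig1 and Insig2, 2.01 to 2.17 for Lbr and Tm7sf2, 1.6 to 1.79 for Abcg1 and Abca1 and 5.86 to 6.05 for Nr1h2 and Nr1h3 (log2). Against a total of protein-coding nuclear genes, member TPM was higher by 8.73 to 9.05%, more than 1 SD for 15 members. That rise follows from the calculation, which divides the same length-corrected counts by a smaller total. Removing GC and length trends raised the members highest in replicate 4 from 7 to 11. Over all 11966 genes the share highest there also rose, from 20.2% to 25.0%. Without length correction the difference between Abcg1 and Abca1 was 0.36. No pairing of samples between conditions was possible because there is 1 group.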
